A study of Mus musculus with 6 samples.

Results

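Plasma cells are the antibody-secreting end of the B cell lineage, and here they were followed in the non-parenchymal fraction of livers from mice with nonalcoholic steatohepatitis (NASH). They were chosen by transcript counts, as cells with at least 10 unique molecular identifiers (UMIs, counted mRNA molecules) of Jchain, at least 4 UMIs summed over Mzb1, Derl3 and Tnfrsf17, at most 1 UMI of the B cell gene Ms4a1, no UMI of Siglech and at most 1 UMI summed over the endothelial genes Kdr and Ptprb. The choice was made among cells with under 5000 genes detected and under 5% mitochondrial UMIs. It gave 290 plasma cells of 27544 kept cells.

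Single-cell transcriptomes came from 6 libraries, 3 for vehicle and 3 for ginkgetin. Both groups were male C57BL/6J mice put on a high-fat diet at 8 weeks of age for 24 weeks, with no engineered allele named. For the last 8 weeks, the vehicle group was given DMSO by stomach tube and the ginkgetin group the plant biflavone ginkgetin at 10 mg/kg per day. No source used here says whether a library was 1 mouse or a pool, so the tests below measure only the spread between libraries.

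A plasma cell devotes most of its protein synthesis to immunoglobulin. The heavy and light chains enter the endoplasmic reticulum (ER) through the Sec61 channel, are folded by chaperones such as BiP (Hspa5), and leave as antibody, and IgA and IgM are joined into polymers by the J chain (Jchain). The transcription factors Blimp-1 (Prdm1), IRF4 (Irf4) and XBP1 (Xbp1) establish this state and switch off much of the B cell program. In liver, IgA plasma cells are of interest because the organ receives blood from the gut, where most IgA plasma cells lodge, and homing receptors such as the integrin alpha4beta7 (Itga4 and Itgb7) and the chemokine receptors Ccr9, Ccr10, Cxcr3 and Cxcr4 set where a plasma cell settles.

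Vehicle replicates 1, 2 and 3 held 45, 32 and 69 plasma cells, and ginkgetin replicates 1, 2 and 3 held 64, 30 and 50. The members carried far more Jchain than the threshold, with medians of 679, 750 and 1223 UMIs in the vehicle libraries and 437, 299 and 806.5 UMIs in the ginkgetin libraries. The 4 lowest Jchain counts inside the rule were 12, 25, 39 and 44 UMIs, and the 4 highest among cells that met every other condition but lay outside it were 5, 1, 1 and 1. For the sum over Mzb1, Derl3 and Tnfrsf17, the lowest inside were 4, 4, 5 and 5 UMIs and the highest outside 3, 3, 1 and 1. Plasma cells were deeply sampled, with a median of 8966, 6635 and 25935 UMIs per cell in the vehicle libraries and 5781.5, 5086.5 and 23687 UMIs in the ginkgetin libraries.

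2 features of the libraries touch all that follows. Replicate 3 of both groups formed 1 set of libraries and replicates 1 and 2 another: cell barcodes shared between libraries numbered 10 to 85 within a set and at most 1 across sets, and no plasma cell barcode was shared. Of 19349 gene symbols in the tables, 2253 had no UMI in replicates 1 and 2 and 946 had none in replicate 3. The former included all 118 immunoglobulin genes, which therefore could be read only in replicate 3. The barcode set cannot be told apart from any other difference between these libraries, and it holds both groups, so pooled values are accompanied by values from either set where they matter.

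The other feature was ginkgetin replicate 2. There 216 cells met every condition but the one on Kdr and Ptprb, and 30 met that one too, so 186 were lost at this step. The same step took 1, 0 and 0 cells from vehicle replicates 1, 2 and 3, and 9 and 5 from ginkgetin replicates 1 and 3. T cells of ginkgetin replicate 2, which should hold neither kind of RNA, had more than 1 UMI of Kdr and Ptprb in 47.6% of cells, against 0.315% to 3.92% in the other libraries. And 68.2% of these T cells had a Jchain UMI, against 6.22% to 26.6% elsewhere. Both kinds of RNA were thus more widespread in that library. Whether free RNA or joined cells gave these counts was not tested.

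RNA of other cell types was present in the plasma cells to differing degrees. Macrophage markers (9 genes) summed to 1873, 377 and 145 counts per 1000000 non-immunoglobulin UMIs (CPM) in the vehicle libraries. In the ginkgetin libraries they summed to 52.6, 125 and 51.9 CPM. Marco or Adgre1 was at 0 in each library of both groups. In vehicle replicate 1 a single cell held 735 of the 848 macrophage marker UMIs. Endothelial markers (8 genes) summed to 37.8 to 108 CPM in the vehicle libraries and 121 to 743 CPM in the ginkgetin libraries, the highest in ginkgetin replicate 2. Hepatocyte markers (9 genes) overlapped between the groups, at 192 to 546 and 189 to 743 CPM. Plasmacytoid dendritic markers (6 genes) were apart, at 345 to 377 CPM in the vehicle and 488 to 593 CPM in the ginkgetin libraries, although Cd300c was at 0 in each and Klk1 in 5 of 6. Cholangiocyte markers (5 genes) were apart the other way, at 158 to 201 and 49.98 to 132 CPM. Tcf4 gave 1126 of the UMIs of the former list and Epcam 371 of those of the latter, and the part of either cell type in the results below was not tested. The other 7 lists for other cell types overlapped. Plasma cell markers that the rule did not use (Xbp1, Sdc1, Prdm1, Irf4, Txndc5, Fkbp11, Edem2 and Creld2) summed to 7934 to 8492 CPM in the vehicle and 5517 to 7887 CPM in the ginkgetin libraries, with none at 0 in any library.

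The first comparison asked whether ginkgetin changed how many plasma cells the fraction held. They made up 0.748%, 0.959% and 1.67% of kept cells of the vehicle libraries in replicate order, against 1.83%, 0.434% and 1.37% of the ginkgetin libraries. The groups overlapped. Their means were 1.13% ± 0.482 and 1.21% ± 0.713 (SD, n = 3 each), a difference of 0.0878 percentage points, with a two-sided exact permutation p of 0.9 (3 libraries against 3 cannot go below 0.1). The difference was 0.279 points among replicates 1 and 2 and -0.295 points in replicate 3. And the value for ginkgetin replicate 2 rested on the condition described above. Without it, that library went from the lowest to the highest share, at 3.12%, and the group means were 1.13% ± 0.475 and 2.24% ± 0.817 (SD, n = 3 each, exact permutation p 0.2).

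**Figure D1:**
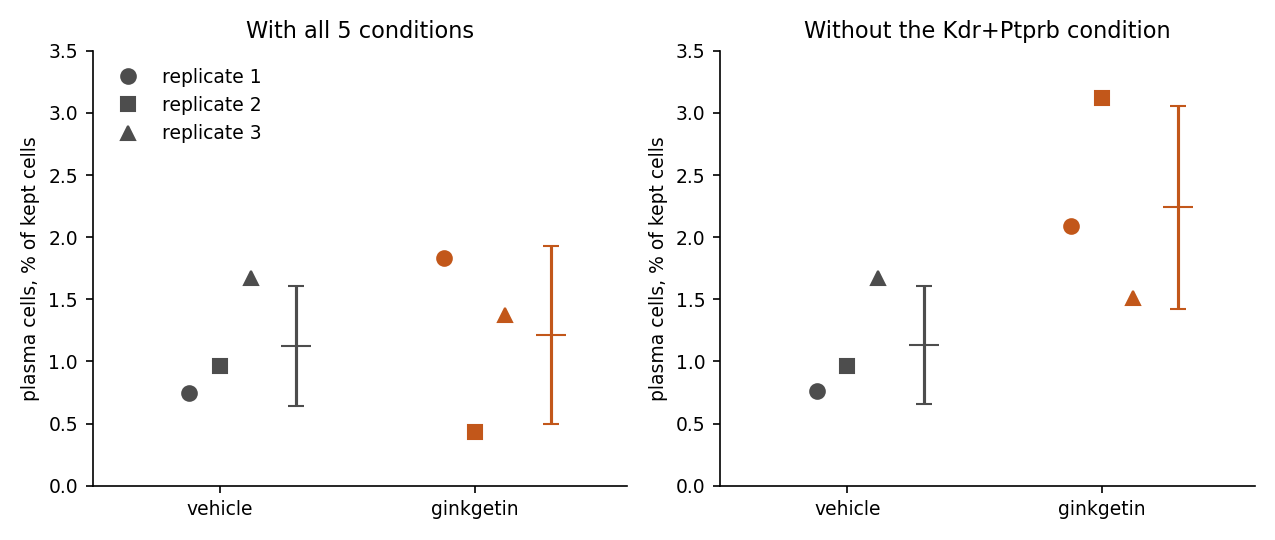
Plasma cells as a percentage of kept cells in each library (y axis), for vehicle and ginkgetin (x axis), with symbols for replicates and bars for the group mean and SD of 3 libraries. On the left all conditions applied and the groups overlapped; on the right, without the condition on Kdr and Ptprb, ginkgetin replicate 2 moved from 0.434% to 3.12% while vehicle replicates 2 and 3 kept their values.

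The second question was which antibody class these plasma cells made, and it could be answered only in the replicate 3 libraries, 1 per group, so no test between groups was possible. A cell was assigned to a heavy chain class when that class held at least 66.7% of 10 or more UMIs of heavy chain constant genes. IgA cells dominated both libraries, with 50 of 69 cells in vehicle replicate 3 (72.5%, 95% Wilson interval 61.0% to 81.6%) and 41 of 50 in ginkgetin replicate 3 (82.0%, 69.2% to 90.2%). The difference of 9.54 points had a Newcombe interval of -6.19 to 23.7 points, which covers counting error only. IgM cells numbered 11 (15.9%, 9.14% to 26.3%) and 2 (4%, 1.10% to 13.5%), and IgG cells 7 in both libraries. The intervals of each class overlapped between the libraries.

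The constant genes lie on chr12 of the GRCm38 build, Igha at chr12:113254830-113260236 and Ighm at chr12:113418558-113422730, both on the minus strand. Igha, the IgA heavy chain, had a median of 2911.5 UMIs in IgA cells of vehicle replicate 3 and 1 UMI in the other classes, and of 2570 and 2 UMIs in ginkgetin replicate 3. Ighm, the IgM heavy chain, had medians of 4360 and 5465 UMIs in IgM cells and of 0 elsewhere. The class was assigned from these UMIs, so the contrast is a description, and 1 cell of vehicle replicate 3 stayed unassigned, with 2018 UMIs of Igha and 1139 of Ighg2b. Among the 7 IgG cells of each library, Ighg2c dominated in 4 and 3 and Ighg2b in 3 and 4, and Ighg1 and Ighg3 dominated in none. Ighd, the IgD heavy chain of naive B cells, had 0 and 3 UMIs over all plasma cells.

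The light chain was kappa in 65 of 69 cells (94.2%, Wilson interval 86.0% to 97.7%) and 49 of 50 (98.0%, 89.5% to 99.6%), and lambda in 4 and 1. The difference in the kappa share was 3.797 points (Newcombe interval -5.40 to 12.1). Igkc, the kappa constant gene, was by far the most abundant transcript, with a median of 10852 UMIs per plasma cell and 40.7% of all their UMIs in vehicle replicate 3, against 6073.5 UMIs and 25.5% in ginkgetin replicate 3. Plasma cells held 79.7% and 67.8% of all Igkc UMIs in kept cells of these libraries. Igkc was also found in 56.8% and 42.9% of T cells, with medians of 1 and 0 UMIs, and the source of these UMIs was not tested.

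Immunoglobulin genes as a whole took a median of 58.2% of a plasma cell's UMIs in vehicle replicate 3 (17.4% to 74.8%) and 43.0% in ginkgetin replicate 3 (10.7% to 67.8%). Within IgA cells the medians were 58.5% and 41.3%, and within IgG cells 54.3% and 51.6%. The ranges of the libraries overlapped, and with 1 library per group the difference has no replicate check.

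**Figure D2:**
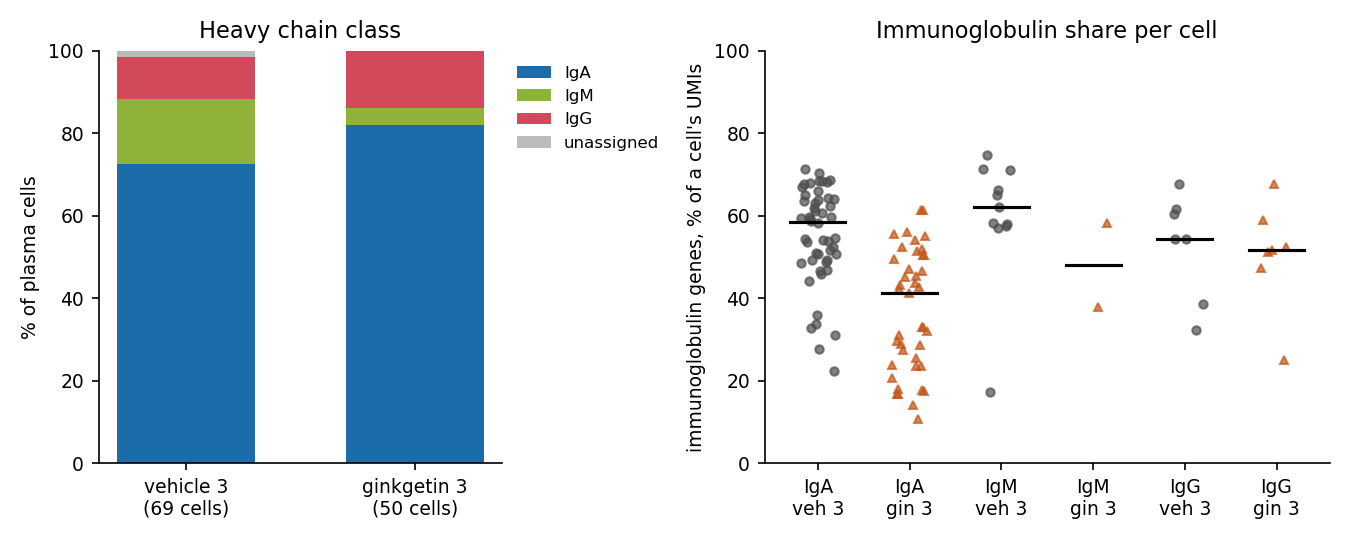
Left, the percentage of plasma cells in each heavy chain class (y axis) in vehicle and ginkgetin replicate 3 (x axis). Right, immunoglobulin genes as a percentage of the UMIs of each cell (y axis, points are cells, lines are medians) by class and library (veh 3, vehicle replicate 3; gin 3, ginkgetin replicate 3); the IgA medians were 58.5% and 41.3%.

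Antibody cells also differ in the variable (V) gene they joined to the constant gene, and each cell was given its dominant V gene where that had 5 or more UMIs and the same dominance. In vehicle replicate 3, 59 cells used 33 heavy chain V genes, with an effective number (inverse Simpson) of 20.6. In ginkgetin replicate 3, 41 cells used 21, with an effective number of 12.6. The depth behind these calls differed, since the dominant V gene had a median of 27 UMIs in the former and 14 in the latter. For kappa V genes the effective numbers were 18.3 and 18.2, over 48 and 46 cells.

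The most used heavy chain V gene was Ighv1-53 in vehicle replicate 3 (7 of 59 cells, 11.9%, Wilson interval 5.87% to 22.5%) and Ighv1-26 in ginkgetin replicate 3 (8 of 41, 19.5%, 10.2% to 34.0%). In 3 of 59 cells of vehicle replicate 3 the dominant gene was Ighv1-26. Where 10 or more UMIs were asked of the V gene, Ighv1-53 was dominant in 6 of 53 cells and Ighv1-26 in 4 of 32. Both belong to the same large family on chr12 and are annotated as IG_V genes of 2 exons. Their V exons are shown because near-identical family members can share reads, so that a call rests on the bases that differ. The first 290 bases of exon 2 are given 5′ to 3′ from the GENCODE M21 transcripts (GRCm38, minus strand), with Ighv1-53 at chr12:115158418-115158707 and Ighv1-26 at chr12:114788387-114788676, and capitals mark the bases at which they differ.
Ighv1-53: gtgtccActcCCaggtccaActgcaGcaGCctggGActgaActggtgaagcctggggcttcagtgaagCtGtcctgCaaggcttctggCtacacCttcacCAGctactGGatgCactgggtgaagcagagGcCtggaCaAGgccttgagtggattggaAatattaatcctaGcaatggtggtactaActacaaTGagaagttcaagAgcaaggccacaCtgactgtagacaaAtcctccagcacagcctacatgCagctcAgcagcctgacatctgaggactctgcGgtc
Ighv1-26: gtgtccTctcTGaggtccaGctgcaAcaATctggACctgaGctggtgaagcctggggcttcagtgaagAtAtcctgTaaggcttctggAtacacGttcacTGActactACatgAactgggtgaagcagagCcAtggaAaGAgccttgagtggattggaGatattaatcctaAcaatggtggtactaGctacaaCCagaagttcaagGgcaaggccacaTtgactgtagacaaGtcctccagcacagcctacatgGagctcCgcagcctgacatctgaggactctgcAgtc
They differed at 37 of 290 bases, an identity of 87.2%.

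Among kappa V genes, Igkv3-2 was the most used in vehicle replicate 3 (6 of 48 cells, 12.5%, Wilson interval 5.86% to 24.7%), and all 6 cells were IgM although IgM was found in 11 of 69 cells. In ginkgetin replicate 3 the most used was Igkv1-117 (6 of 46, 13.04%, 6.12% to 25.7%), which was dominant in 4 of 48 cells of vehicle replicate 3. Of 40 cells with both V genes called in vehicle replicate 3, 1 heavy and kappa pair was seen again, Ighv1-53 with Igkv3-2 in 2 IgM cells. Of 38 such cells in ginkgetin replicate 3, 4 pairs were seen again, in 9 cells, all IgA, the most frequent being Ighv1-26 with Igkv3-10 in 3 cells. These pairs were named after their values were seen, and a shared pair of V genes does not show a shared clone because the junctions were not read here.

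Plasma cells of different classes then were compared with each other, which asked whether IgA cells carried another program than IgM and IgG cells. Only 9 cells of ginkgetin replicate 3 were IgM or IgG, under the 10 needed to enter the planned edgeR fit, so only folds within each library are given, as CPM of non-immunoglobulin UMIs summed per class, with exact Poisson intervals for counting error. Of 2052 genes compared, 16 were over 2-fold higher in IgA cells in both libraries (0.78%) and 17 over 2-fold lower (0.828%), while 21 (1.02%) differed over 2-fold in opposite directions. The genes below were named after their values were seen. The other cells were 11 IgM and 7 IgG cells in vehicle replicate 3 but 2 IgM and 7 IgG cells in ginkgetin replicate 3.

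Klf2, a transcription factor that governs lymphocyte trafficking, was higher in IgA cells, at 269.7 CPM (228 to 317) against 37.7 CPM (18.1 to 69.3) in IgM and IgG cells of vehicle replicate 3. In ginkgetin replicate 3 it was at 605 CPM (544 to 670) against 63.1 CPM (25.4 to 130). Itgb7, which encodes the beta7 chain of the gut-homing integrin, was at 369 CPM (320 to 424) against 121 CPM (82.5 to 170) in the former and at 507 CPM (451 to 567) against 90.2 CPM (43.2 to 166) in the latter. In both libraries these intervals were apart for both genes. In vehicle replicate 3, Itgb7 was at 190 CPM (123 to 281) in IgG cells and 52.4 CPM (21.1 to 108) in IgM cells. A UMI of Itgb7 was found in 44 of 50 and 39 of 41 IgA cells, against 11 of 18 and 3 of 9 other cells.

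Ccr10, a receptor for chemokines of epithelia, was found in 46 of 50 IgA cells against 4 of 18 other cells in vehicle replicate 3, at 584 CPM (521 to 652) against 132 CPM (91.9 to 184). In ginkgetin replicate 3 it was found in 30 of 41 against 3 of 9 cells, at 209 CPM (174 to 249) against 90.2 CPM (43.2 to 166). All other cells with a Ccr10 UMI were IgG, 4 of 7 in vehicle replicate 3 at 266 CPM (185 to 370) and 3 of 7 in ginkgetin replicate 3 at 123 CPM (59.1 to 227), and no IgM cell had one. In ginkgetin replicate 3 the intervals of IgG and IgA cells overlapped. Ccr9, a receptor for the small intestinal chemokine Ccl25, was near the limit of detection, with 0 UMIs in the 50 IgA cells of vehicle replicate 3, an exact Poisson upper limit of 6.82 CPM, and 11 UMIs in 3 of 41 IgA cells of ginkgetin replicate 3. Other genes higher in IgA cells in both libraries were Runx2 (68.4 against 7.54 CPM and 88.0 against 9.02 CPM) and Anxa2 (113 against 26.4 CPM and 673 against 45.1 CPM). The intervals of IgG and IgA cells overlapped for Runx2 in both libraries, with IgG cells at 15.2 CPM (1.84 to 54.9) and 12.3 CPM (0.312 to 68.7), and for Anxa2 in vehicle replicate 3, with IgG cells at 45.6 CPM (16.7 to 99.3).

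Cxcr4, the receptor for Cxcl12 that holds plasma cells in bone marrow, was lower in IgA cells than in the pooled other cells of both libraries. It was at 5.54 CPM (1.14 to 16.2) against 121 CPM (82.5 to 170) in vehicle replicate 3 and at 6.64 CPM (1.81 to 17.0) against 162 CPM (96.2 to 256) in ginkgetin replicate 3. A Cxcr4 UMI was found in 3 of 50 and 4 of 41 IgA cells, against 12 of 18 and 9 of 9 other cells. In vehicle replicate 3 the UMIs were mostly of IgM cells, at 209 CPM (139 to 303, 10 of 11 cells), while IgG cells were at 30.4 CPM (8.29 to 77.9, 2 of 7 cells), an interval that overlapped that of IgA cells. In ginkgetin replicate 3 all 7 IgG cells had a Cxcr4 UMI, at 136 CPM (67.7 to 243). Ly6c2, a surface antigen, was at 379 CPM (329 to 434) against 1275 CPM (1142 to 1418) and at 254 CPM (215 to 298) against 2885 CPM (2578 to 3219). Among the other cells it was higher in IgG cells, at 1779 CPM (1559 to 2023) against 778 CPM (636 to 943) in IgM cells of vehicle replicate 3 and at 3711 CPM (3304 to 4155) against 637 CPM (384 to 995) in those of ginkgetin replicate 3. Pon3 was at 64.7 against 264 CPM and 28.2 against 189 CPM. Prg2 was at 92.4 against 249 CPM and 23.3 against 198 CPM, but in vehicle replicate 3 IgG cells were at 98.9 CPM (52.6 to 169), much like IgA cells (68.6 to 122), and IgM cells at 396 CPM (297 to 519). Of the other plasma cell transcription factors, Zbtb20 was lower in IgA cells than in the pooled others, at 149.6 CPM (119 to 186) against 272 CPM (212 to 342) in vehicle replicate 3 and at 156 CPM (126 to 191) against 478 CPM (358 to 625) in ginkgetin replicate 3. IgG cells overlapped IgA cells in both libraries, at 205 CPM (135 to 299) and 222 CPM (132 to 351), and IgM cells were at 337 CPM and, from 2 cells, 1174 CPM. Xbp1 differed in opposite directions, at 2078 against 1606 CPM in vehicle replicate 3 and 2269 against 2831 CPM in ginkgetin replicate 3. Irf4 was at 148 CPM (117 to 184) against 139.5 CPM (98.2 to 192) in the former and at 414 CPM (364 to 468) against 225 CPM (146 to 333) in the latter.

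**Figure D3:**
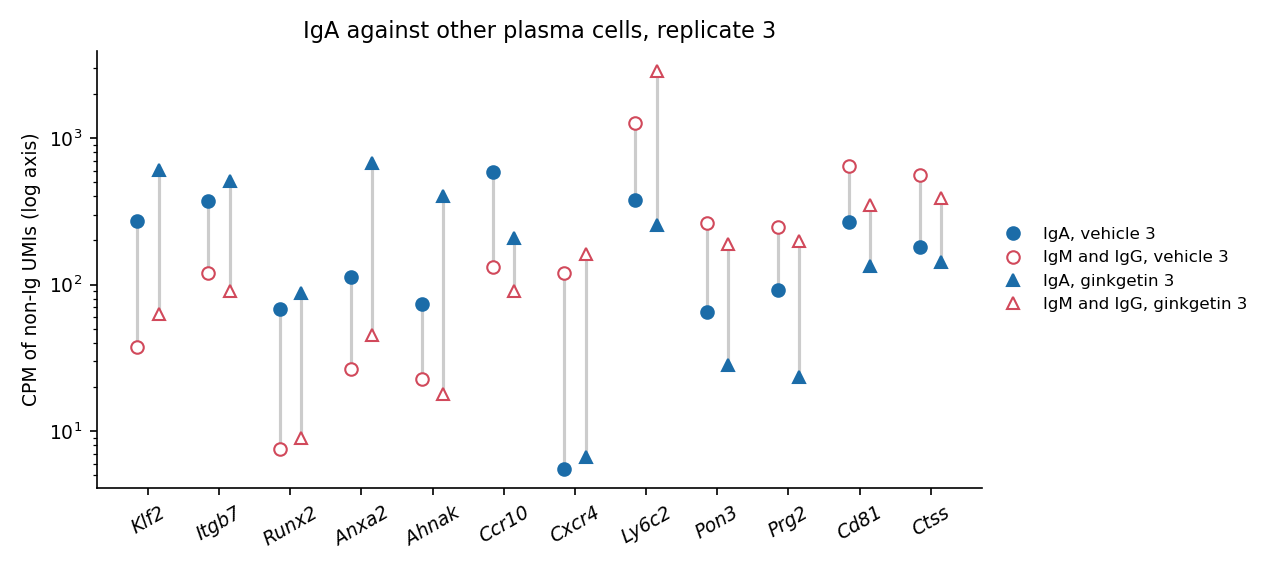
Level of 12 genes (x axis) in CPM of non-immunoglobulin UMIs (log y axis) in IgA cells (filled) and in IgM and IgG cells (open) of vehicle replicate 3 (circles) and ginkgetin replicate 3 (triangles). Klf2, Itgb7 and Ccr10 were higher in IgA cells in both libraries, and Cxcr4 and Ly6c2 were lower than in the pooled IgM and IgG cells.

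The third comparison asked which transcripts of plasma cells differed with ginkgetin. Counts were summed per library over the plasma cells. Levels in plasma cells below are CPM of the genes tested, scaled by the trimmed mean of M-values (TMM). Levels in T, B, endothelial and IgA cells below are CPM of non-immunoglobulin UMIs without that scaling, so the 2 scales differ. By edgeR's quasi-likelihood method, 0 of 3723 (0%) passed an adjusted p under 0.05 with a fold over 2, the lowest adjusted p being 0.116, although 442 genes had an unadjusted p under 0.05. With the barcode set as a block, which removes the difference between the sets, edgeR called 50 genes, 28 higher (0.752%) and 22 lower (0.591%) in the ginkgetin group. The 22 include the macrophage genes C1qa (-3.63 on the log2 scale) and C1qb (-4.24), whose cell type had higher marker levels in the vehicle libraries, as given above. In 49 of the 50 the libraries of both groups were fully apart, which held for 364 of 3723 tested genes in the higher direction (9.78%) and 364 in the lower one (9.78%). DESeq2 called 39 genes and limma-voom 0, and replicates 1 and 2 alone gave 4 calls, all lower, whereas replicate 3 alone has no test. The median log2 fold change of all tested genes was 0.02. Without a block, edgeR called 12 genes when only symbols with a UMI in both barcode sets entered and 18 with no filter on low counts, so the calls depend on the fit. The planned fit had no block, and the barcode set block was an alternative that gave more calls than any other fit run. Calls below are those of the blocked fit unless another is named. Log2 fold changes, SEs and list medians below are of the fit without a block, also beside a blocked adjusted p. Exceptions are Ahnak, Itpr3, Insig1, Fkbp11 and folds given with the block.

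Several stress genes were lower in the ginkgetin group. Hspa1a, which encodes the inducible heat shock protein Hsp70, was at 724, 661 and 602 CPM over vehicle replicates 1 to 3 and at 86.7, 13.8 and 25.7 CPM over ginkgetin replicates 1 to 3. The highest ginkgetin library lay far below the lowest vehicle library, with means of 662 ± 60.9 and 42.1 ± 39.1 CPM (SD, n = 3 each). The log2 fold change was -3.90 (SE 0.56, edgeR adjusted p 0.116), and with the barcode set block -3.87 (edgeR adjusted p 0.00198). The log2 ratio was -3.54 among replicates 1 and 2 and -4.10 in replicate 3. Its neighbour Hspa1b, whose reads can be shared with Hspa1a because the coding sequences are near-identical, was at 275, 312 and 514 CPM against 91.9, 13.8 and 28.8 CPM (-2.95 on the log2 scale, blocked edgeR adjusted p 0.0170).

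The promoters of Hspa1a and Hspa1b are shown because both genes were called lower and their promoters hold the letters of a heat shock element, the site that heat shock factors bind. The 250 bases before each start are given 5′ to 3′ from RefSeq (GRCm38.p6, both on the minus strand), Hspa1a at chr17:34972157-34972406 and Hspa1b at chr17:34959239-34959488, and capitals mark the match to GAANNTTC, which reads the same on both strands.
Hspa1a: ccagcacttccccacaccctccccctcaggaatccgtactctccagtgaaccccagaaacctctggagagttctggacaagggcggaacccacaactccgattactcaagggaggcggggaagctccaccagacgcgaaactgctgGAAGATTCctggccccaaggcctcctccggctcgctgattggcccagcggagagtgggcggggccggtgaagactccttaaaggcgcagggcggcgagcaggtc
Hspa1b: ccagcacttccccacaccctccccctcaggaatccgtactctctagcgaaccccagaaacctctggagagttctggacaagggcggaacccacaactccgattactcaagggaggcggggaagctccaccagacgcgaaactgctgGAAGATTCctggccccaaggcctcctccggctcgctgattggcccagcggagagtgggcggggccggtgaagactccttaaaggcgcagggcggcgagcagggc
The motif had 0 matches at both starts of Dnajb1, which was called lower too, and 0 at both starts of Hsph1. It was found in 6.69% of the 32851 promoters of the same length, and a match is a description of the letters only.

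Of the 16 immediate-early and heat shock genes tested, 13 were lower and 3 higher, with a median log2 fold change of -1.14, and 8 did not overlap between the groups, all lower. The blocked fit called 5 of the 16, all lower: Hspa1a, Hspa1b, Hspa8, Dnajb1 and Nfkbia. Hspa8, the constitutive Hsc70, was at 1728, 1858 and 1267 CPM against 819, 351 and 551 CPM (-1.49 on the log2 scale, blocked edgeR adjusted p 0.0264). Dnajb1, an Hsp40 cofactor of Hsp70, was at 464, 296 and 213 CPM against 168, 145 and 63.6 CPM. Nfkbia, the NF-kB inhibitor that is itself an NF-kB target, was at 673, 613 and 800 CPM against 362, 248 and 248 CPM (-1.28, edgeR adjusted p 0.0220 with the block). Each of them was lower in every ginkgetin library than in every vehicle library.

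The heat shock difference was also present outside plasma cells. In T cells of the same libraries Hspa1a was at 713, 780 and 374 CPM in the vehicle group and at 47.0, 15.2 and 35.7 CPM in the ginkgetin group. In B cells it was at 632, 633 and 532 CPM against 71.4, 14.98 and 39.0 CPM. Of the 22 genes called lower in plasma cells, 12 were also lower without overlap in T cells and 12 in B cells, against 11.1% and 11.5% of the 3723 genes. Of the 28 called higher, 7 and 7 were higher there, against 3.49% and 6.02%. Whether the difference was larger in plasma cells than in T or B cells was not tested.

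Other genes lower in the ginkgetin group included Cebpb, a stress-inducible transcription factor, at 211, 148 and 179 CPM against 63.0, 68.9 and 68.1 CPM, or -1.43 ± 0.23 (SE) on the log2 scale (edgeR adjusted p 0.116, or 0.0189 under the block). Gem, a small GTPase, was at 73.3, 48.1 and 90.9 CPM against 15.8, 20.7 and 9.08 CPM (-2.42, edgeR adjusted p 0.0211 with the block), and Ier5, an immediate-early gene, at 402, 256 and 290 CPM against 116, 124 and 138 CPM (-1.33, edgeR adjusted p 0.0220 with the block). Neither group overlapped the other for any of them.

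Among the regulators of plasma cell identity, 1 gene was called, and it was higher in the ginkgetin group. Irf4, which is required for plasma cells to form and persist, was at 142, 124 and 159 CPM in the vehicle libraries and at 276, 558 and 415 CPM in the ginkgetin libraries. Every ginkgetin library lay above every vehicle library, with means of 142 ± 17.3 and 416 ± 141 CPM (SD, n = 3 each). The log2 fold change was 1.54 (SE 0.30, edgeR adjusted p 0.185), and 1.51 with the block (edgeR adjusted p 0.0220). Without the condition on Kdr and Ptprb it was 1.17. In endothelial cells, whose markers were highest in the ginkgetin libraries, Irf4 was at 1.38 to 32.1 CPM and in T cells at 6.60 to 18.5 CPM, below its level in plasma cells of the same library. B cells held it at 27.8, 26.1 and 91.5 CPM in the vehicle and 96.4, 80.3 and 172 CPM in the ginkgetin libraries, which overlapped. After thinning each plasma cell to 1000 non-immunoglobulin UMIs, an Irf4 UMI was found in 11.1%, 9.38% and 11.6% of vehicle and 17.2%, 40.0% and 30% of ginkgetin plasma cells, and in 60.0%, 43.8% and 65.2% against 67.2%, 73.3% and 88.0% without thinning.

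Of the 11 transcription factors in this list, all tested, 10 were higher and 1 lower in the ginkgetin group (median log2 fold change 0.37), 4 did not overlap, all higher (Irf4, Ell2, Creb3l2 and Klf2), and the blocked fit called 1, Irf4. Prdm1 was at 82.2, 116 and 214 CPM against 218, 165 and 330 CPM, and Klf2, which endothelial cells held at 698 to 1968 CPM, at 162, 228 and 220 CPM against 276, 455 and 561 CPM, and neither was called (edgeR adjusted p 0.0902 and 0.0621 with the block). Xbp1 overlapped fully, at 1874, 2447 and 2120 CPM against 1765, 1722 and 2543 CPM (log2 fold change -0.09, SE 0.25).

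In the fit without the block, the 5 genes of smallest p among those higher in the ginkgetin group, at 50 CPM or more in one group and without overlap, were Myadm, Wars, Hmgcs1, Zbtb32 and Plek, and the blocked fit called all of them. In the blocked fit, Ahnak and Itpr3 had smaller p than these 5, with log2 fold changes of 2.34 and 2.58. Zbtb32, a transcriptional repressor of the zinc finger type, was nearly absent from the vehicle libraries at 4.44, 0 and 1.36 CPM and was at 28.9, 62.0 and 65.1 CPM in the ginkgetin libraries, from 66 UMIs in all (edgeR adjusted p 0.0103 with the block). Hmgcs1, an enzyme of cholesterol synthesis, was at 11.1, 16.02 and 14.9 CPM against 70.9, 48.2 and 66.6 CPM, or 2.18 ± 0.33 (SE) on the log2 scale (edgeR adjusted p 0.0170 under the block). Insig1, an ER protein that restrains sterol synthesis, was also called higher by that fit (1.09 on the log2 scale) and was named after its values were seen.

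Myadm, a membrane protein of the myeloid and lymphoid lineages, was at 57.7, 76.1 and 48.8 CPM against 207, 172 and 247 CPM, or 1.82 ± 0.26 (SE) on the log2 scale (edgeR adjusted p 0.0103 under the block). Wars, the cytoplasmic tryptophanyl-tRNA synthetase, was at 31.1, 44.1 and 43.4 CPM against 110, 158 and 165 CPM (1.86). Plek, a substrate of protein kinase C, was at 40.0, 40.0 and 37.98 CPM against 94.5, 179 and 174 CPM (1.91). None overlapped between the groups. Endothelial cells held Myadm at 103 to 149 CPM and Wars at 86.8 to 127.6 CPM, and the part of endothelial RNA in these values was not tested.

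**Figure D4:**
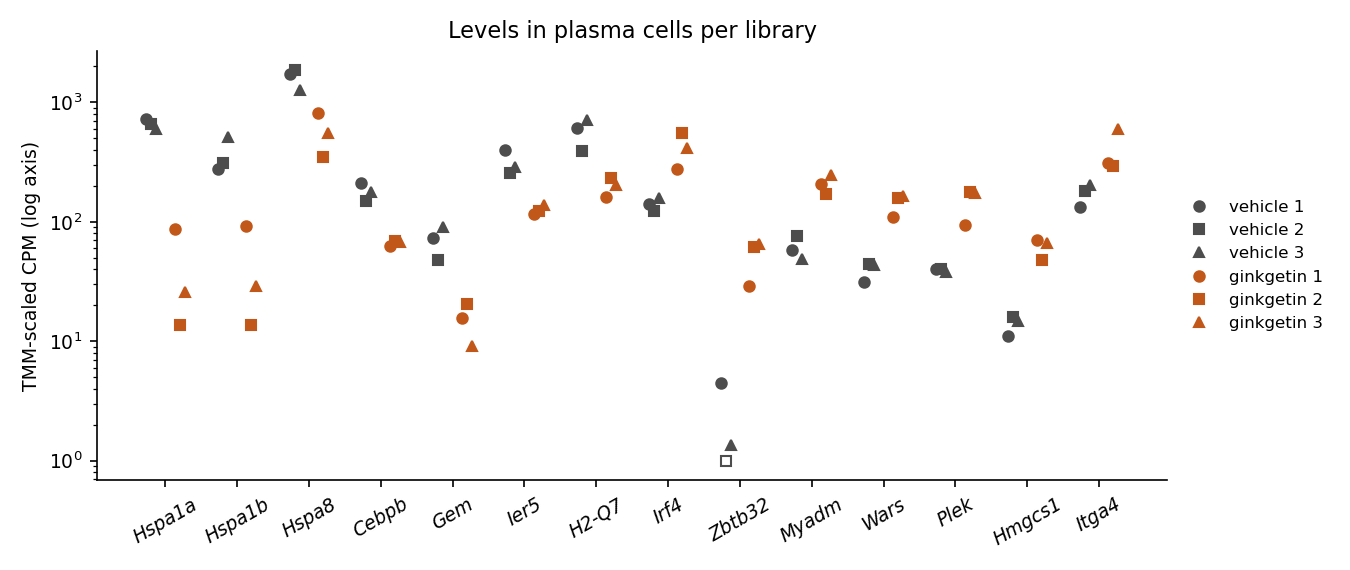
Level of 14 genes (x axis) in TMM-scaled CPM (log y axis) in plasma cells of each library, with vehicle in grey, ginkgetin in orange and a symbol for each replicate. The open square marks the value of 0 for Zbtb32 in vehicle replicate 2, drawn at 1 CPM; the groups did not overlap for any gene shown.

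The lists of the secretory machinery had small medians and no called gene. Of 24 ER chaperones and folding enzymes 18 were lower and 6 higher (median log2 fold change -0.33), with 7 lower and 1 higher without overlap, none called with or without the block. Hspa5, the major ER chaperone BiP, overlapped between the groups, at 2592, 2247 and 4383 CPM against 1867, 1392 and 3118 CPM. Dnajb9, an Hspa5 cofactor, did not overlap, at 464, 473 and 495 CPM against 362, 255 and 215 CPM (-0.78 on the log2 scale, blocked edgeR adjusted p 0.0903). Fkbp11, of the same list, overlapped, at 557, 380 and 604 CPM against 176, 110 and 400 CPM. Its log2 fold change was -1.25 with the block (edgeR adjusted p 0.0558). Of 20 genes of the translocon and signal peptidase 9 were higher and 11 lower (median -0.01), and of 10 N-glycosylation genes 5 and 5 (median -0.02).

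ER-associated degradation (11 genes tested, 5 higher and 6 lower, median -0.02) and ER to Golgi traffic (16 genes, 6 and 10, median -0.17) likewise had 0 called genes. Herpud1, a stress-induced component of the degradation complex, was the most different of these, at 1126, 1306 and 2333 CPM against 838, 641 and 636 CPM (-1.17 on the log2 scale, edgeR adjusted p 0.298 without and 0.0601 under the block). Of 6 tested genes of the integrated stress response, all 6 were lower (median -0.61) and 1 was called with the block, Cebpb.

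Of 10 tested homing and adhesion genes 6 were higher and 4 lower (median log2 fold change 0.14). Itga4, the alpha4 integrin chain, was at 133, 180 and 202 CPM against 313, 296 and 598 CPM (1.23, SE 0.34, edgeR adjusted p 0.298, and 0.0244 with the block), and the groups did not overlap. Its partner Itgb7 did overlap, at 151, 152 and 324 CPM against 150, 248 and 477 CPM (0.48). Ccr10 was at 129, 104 and 484 CPM against 97.2, 13.8 and 206 CPM (-1.09, edgeR adjusted p 0.156 with the block), with both replicate 3 libraries highest. Thinned to the same depth, a Ccr10 UMI was found in 6.67%, 6.25% and 20.3% of vehicle plasma cells and in 7.81%, 0% and 6% of ginkgetin plasma cells, the 0 being of 30 cells.

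Of the 15 tested survival receptors and surface antigens 6 were higher and 9 lower (median -0.51), with 0 called. Sdc1, which encodes the plasma cell surface marker CD138, overlapped at 213, 172 and 338 CPM against 163, 165 and 303 CPM (log2 fold change -0.19, SE 0.35). Slamf7 was at 204, 284 and 421 CPM against 131, 138 and 277 CPM (-0.72). Ly6a (Sca-1) did not overlap, at 788, 817 and 739 CPM against 517, 179 and 366 CPM (-1.13), yet it was not called either (edgeR adjusted p 0.0902 with the block). Of 4 tested effector genes 2 were higher and 2 lower, with 0 called.

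Among antigen presentation genes, 1 of class I and 2 of class II were called, all lower. Of 10 MHC class I genes 9 were lower and 1 higher (median log2 fold change -0.72), 5 did not overlap, all lower, and the blocked fit called H2-Q7, at 611, 392 and 714 CPM against 160, 234 and 203 CPM (-1.53, SE 0.30, edgeR adjusted p 0.185, and 0.0170 with the block). Of 9 tested B cell genes 6 were lower and 3 higher (median -0.75), and the blocked fit called the class II genes H2-Ab1 and H2-Eb1. H2-Ab1 was at 1752, 1221 and 700.0 CPM against 507, 386 and 501 CPM, and H2-Eb1 at 993, 817 and 378 CPM against 265, 303 and 262 CPM. H2-Aa, the partner of H2-Ab1, overlapped, at 893, 773 and 127.5 CPM against 189, 193 and 153 CPM, with a log2 ratio of -2.07 among replicates 1 and 2 and 0.24 in replicate 3. Macrophages express class II genes strongly, and the macrophage markers given above ranked in the same order over the vehicle libraries, as did C1qb, at 422, 92.1 and 35.3 CPM against 5.25, 27.6 and 3.03 CPM. In B cells of the same libraries H2-Ab1 was also lower without overlap, at 4452, 3559 and 3061 CPM against 1853, 1559 and 2638 CPM. H2-Eb1 was too, at 4009, 3509 and 3257 CPM against 2403, 2229 and 2813 CPM, while H2-Aa overlapped there. In T cells each of these genes overlapped. The part of macrophage RNA in the class II values of plasma cells was not tested.

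Of 7 tested interferon-stimulated genes all 7 were lower (median -0.28), 3 without overlap (Isg15, Bst2 and Isg20), and 0 were called. Of 14 tested cell cycle genes 11 were lower and 3 higher (median -0.56), with 0 called. Thinned to 1000 UMIs, 3 or more cell cycle genes were seen in 11.1%, 9.38% and 5.80% of vehicle plasma cells and in 7.81%, 0% and 6% of ginkgetin plasma cells, the 0 being of 30 cells. Without thinning these were 40.0%, 15.6% and 18.8% against 15.6%, 6.67% and 34.0%.

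**Figure D5:**
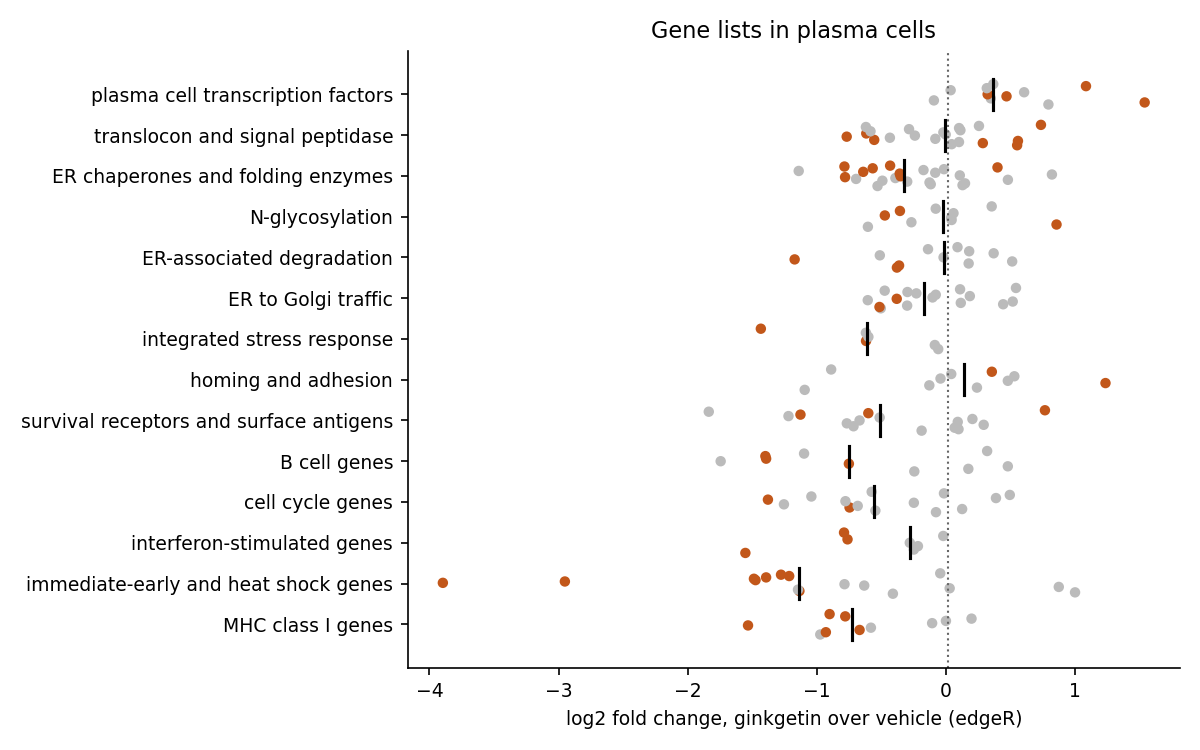
Log2 fold change of each tested gene (x axis, edgeR, ginkgetin over vehicle) in 14 gene lists (y axis), orange where the 3 ginkgetin and 3 vehicle libraries did not overlap, with list medians as black lines and the median of all tested genes dotted. Immediate-early and heat shock genes had the lowest median, -1.14, and plasma cell transcription factors the highest, 0.37.

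The class of the antibody could be held constant in replicate 3 only. Within its IgA cells all 28 genes called higher were higher in ginkgetin replicate 3, 26 of them over 2-fold, and all 22 genes called lower were lower, 13 of them over 2-fold. Irf4 was at 148 CPM in vehicle and 414 CPM in ginkgetin IgA cells, and Hspa1a at 418 and 6.64 CPM. These libraries took part in the calls, and IgA cells were 50 of 69 and 41 of 50 of their plasma cells. The agreement was therefore nearly fixed in advance and is a description. The matching share of all tested genes was not computed. Some called genes also separated the classes. Ahnak and Crip1, higher in the ginkgetin group, were among the 16 genes higher in IgA cells (7.14% of the 28 and 12.5% of the 16), and Cd81, Ctss, Oosp1 and Pon3, lower in the ginkgetin group, were among the 17 genes lower in IgA cells (18.2% of the 22 and 23.5% of the 17). The 16 and 17 genes were 0.78% and 0.828% of the 2052 genes compared. H2-Ab1, H2-Eb1, Ctss and Oosp1 had log2 ratios of -0.22, -0.22, -0.32 and -0.27 within IgA cells. Over all cells with an assigned class in the same 2 libraries these were -0.44, -0.48, -0.73 and -1.03, and among replicates 1 and 2 the ratios over all plasma cells were -1.71, -1.64, -1.93 and -1.54.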

How the data were processed

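Liver non-parenchymal cells underwent droplet-based single-cell RNA sequencing in 3 vehicle and 3 ginkgetin libraries. The deposited values were raw UMI counts per gene and cell barcode, made by the authors and not normalized. The builds in the submitters' processing notes were GRCm38 and mm10, and the counting tool and its version were not given in the sources used here. No deposited file used here assigned cells to types. Libraries held 3577 to 8119 barcodes and 13128697 to 61796882 UMIs.

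Cells with under 5000 genes and under 5% mitochondrial UMIs were kept, doublets were not called, and plasma cells were chosen by the counts given above. The members and gene lists were chosen with earlier results of these data known. Shares were compared with a two-sided exact permutation test over libraries. For genes, UMIs were summed per library over plasma cells (10 or more cells per library), filtered by filterByExpr, scaled by TMM and tested with edgeR 4.0.16 (quasi-likelihood, Benjamini-Hochberg adjustment over all tested genes) in R 4.3.3, with the 3 vehicle and 3 ginkgetin libraries and no covariate. A call needed an adjusted p under 0.05 and a fold over 2. Calls named in the results came from an alternative fit with the barcode set as a block. The scripts were tested on simulated data. Intervals on counts were 95% Wilson, Newcombe or exact Poisson and cover counting error only. In the class comparison 10 CPM were added before a fold was formed and a gene needed 50 CPM in one class. Ig genes had no UMI in replicates 1 and 2, so the planned tests of class shares and of IgA against other cells were replaced by values in replicate 3.

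Genes were named by rule: the constant genes, the 5 genes of smallest p in each direction (50 CPM or more, no overlap, no immunoglobulin, ribosomal, mitochondrial or choosing gene), up to 4 genes of smallest p per list with Prdm1, Irf4, Xbp1, Sdc1, Cd38, Slamf7, Ccr9, Ccr10, Cxcr3, Cxcr4 and Itgb7, and V genes dominant in 10% or more of cells. Others were chosen after their values were seen. V exons came from GENCODE M21 and promoters from RefSeq (GRCm38.p6). Alternatives were DESeq2 1.42.0, limma-voom (limma 3.58.1), no filter on low counts, library sizes without immunoglobulin genes, other filters and thresholds on cells, a replicate or barcode set block, and each library left out. Python 3.11.15 with numpy 2.4.6, pandas 2.3.3 and scipy 1.17.1 was used.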

Additional observations from a re-analysis of the deposited data

Results flagged for a closer look

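In ginkgetin replicate 2, 186 cells met every condition for plasma cells but had more than 1 UMI of Kdr and Ptprb, and no comparison above used them. Their median was 393.5 UMIs of Jchain, 32.5 UMIs over Mzb1, Derl3 and Tnfrsf17, and 5 UMIs of Kdr and Ptprb, at a median depth of 6426 UMIs. The 30 plasma cells of the same library had medians of 299, 20 and 1 UMIs at a depth of 5086.5 UMIs. These 30 cells held 8.19% of the library's Jchain UMIs, against 71.5% to 86.7% in the other libraries. The source of the Kdr and Ptprb UMIs was not tested.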

How the results depend on the processing

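Among the limits were 30 to 69 plasma cells per library, 3 libraries per group, and 1 per group for immunoglobulin genes. The difference in the plasma cell share lay between -0.222 and 0.477 points with each library left out in turn, and was -0.295 in replicate 3 alone, where no test is possible. It was 1.11 without the condition on Kdr and Ptprb (exact permutation p 0.2). With cells thinned to 1000 UMIs it was 1.15 (exact permutation p 0.1), but the rule there was not the same. Thresholds on Jchain and on the sum over Mzb1, Derl3 and Tnfrsf17 were lower, and the condition on Kdr and Ptprb was applied to thinned counts. Ginkgetin replicate 2 then had 218 plasma cells (3.15%). Cells under 1000 UMIs were left out, 23 in vehicle replicate 3 and 112 in ginkgetin replicate 3. Among cells of 250 to 5000 UMIs the difference was 0.187 (exact permutation p 0.7), but this range left 44 plasma cells, with 0 in either replicate 3 library.

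edgeR without a block called 0 genes under 10 other settings as well, 6 of which left out 1 library each. Against this, DESeq2 called 39 genes, edgeR with no filter on low counts 18, with only the symbols that had a UMI in both barcode sets 12, in replicates 1 and 2 alone 4, and with the barcode set block 50. With the replicate number as a block, edgeR called 36 genes, of which 35 were among those 50, and the log2 difference in plasma cell numbers was -0.025 (edgeR p 0.973). Replicate numbers were not taken to pair the libraries, since the deviations of same-numbered libraries correlated at 0.154, 0.0999 and 0.46, and vehicle replicate 2 correlated best with ginkgetin replicate 1 (0.197).

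The difference in the effective number of V genes, -7.96 for heavy chains, was -0.0443 for kappa chains. With each library left out in turn, 3 of 42 genes turned sign: the log2 fold change of Xbp1 lay between -0.293 and 0.0187 (without ginkgetin replicate 2), of Sdc1 between -0.563 and 0.119 (without vehicle replicate 3), and of Itgb7 between -0.116 (without ginkgetin replicate 3) and 0.928. In the fit without a block, none of the 42 genes had an adjusted p under 0.05. Of 713 pairs of a gene and another setting, 612 likewise did not pass, 98 passed and 3 turned sign. Irf4 passed in 3 of 17 settings and Hspa1a in 6 of 17. The cause of these differences between settings was not tested.

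The fits with 250 to 5000 UMIs per cell and without cells holding markers of other types were not run for genes, since too few libraries kept 10 cells. Fits of IgA against other cells, and leave-one-out and block values of class shares and V genes, were not run because only 1 library per group held immunoglobulin counts.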
